A study of Sus scrofa with 14 samples.

Results

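The TADs (topologically associating domains) of wild boar were compared between 2 fat depots, the greater omentum (GOM) and the upper layer of backfat (ULB). The members were the boundaries between neighbouring TADs on the 18 autosomes, taken from 1 deposited TAD list per depot. A boundary was the midpoint of a gap of at most 400 kb between neighbouring TADs, and it was counted as found in one depot only when the other depot had no boundary within 40 kb. The GOM list gave 3811 boundaries and the ULB list 3752, together 7563 of the 14988 boundaries in the 4 lists of the series. Of these, 764 were found in GOM only and 705 in ULB only, 1469 in all. Each depot of wild boar had 2 Hi-C and 2 RNA-seq libraries, 8 of the 14 libraries used in the series, all from adults of 2 years of age that carried no treatment or allele to compare. The methods describe females raised in captivity, with both depots taken from the same animals. For Hi-C, nuclei came from the upper layer of centrifuged tissue, which held the adipocytes. The methods name no such step for RNA, so the 2 readouts may cover different mixtures of cells. Each TAD list was called on merged replicates, so no replicate check of a boundary exists. The Bama pig, a Chinese miniature breed with animals of the same age and sex, gave 1 further list per depot, which served only as a second look at the same positions.

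TADs are stretches of chromosome that contact themselves more often than their neighbours. Many boundaries between them are held by cohesin stopped at the DNA-binding protein CTCF, and a boundary can limit which enhancers reach which promoters. Omental fat is a visceral depot covered by mesothelium and derives largely from lateral plate mesoderm, whereas backfat is subcutaneous. The 2 depots keep different sets of developmental transcription factors in the adult, such as WT1 and GATA factors in visceral fat and EN1 in dorsal subcutaneous fat.

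The sequences that follow are matches to the 12-base core consensus of the CTCF motif, searched on both strands, at depot-only boundaries that divide a TAD around a gene described further on. They are shown because they place a readable landmark at 6 of the 10 such boundaries. The core is in capitals with 10 flanking bases on each side, written 5′ to 3′ on the strand of the match. The build is Sscrofa11.1 from RefSeq. The first lies 0.1 kb from the ULB-only boundary between IRX1 and IRX2, at chr16:78230099-78230130 on the plus strand. The others belong to the boundaries that divide the TADs of ZIC1 (chr13:87541768-87541799, plus strand), ISL1 (chr16:31495419-31495450, minus strand), GATA5 (chr17:62457650-62457681, minus strand), TCF21 (chr1:29944558-29944589, plus strand) and ST6GAL2 (chr3:48025499-48025530, plus strand). These boundaries lie between 38.3 kb (TCF21) and 618.1 kb (ST6GAL2) from the start of the gene.
IRX2: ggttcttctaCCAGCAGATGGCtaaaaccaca
ZIC1: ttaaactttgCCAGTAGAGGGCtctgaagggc
ISL1: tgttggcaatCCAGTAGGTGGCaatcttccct
GATA5: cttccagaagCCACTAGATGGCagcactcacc
TCF21: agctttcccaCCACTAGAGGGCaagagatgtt
ST6GAL2: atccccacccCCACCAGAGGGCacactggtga

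The core was found at depot-only boundaries of both depots. In windows of 40 kb centred on the boundary, 22.8% of the 764 GOM-only and 24.3% of the 705 ULB-only boundaries held at least 1 core. The share was 27.6% at the 3047 matched boundaries of GOM and 16.8% over all 56592 windows of that length on the autosomes. Among the depot-only boundaries whose gaps lay more than 40 kb from any gap of the other depot, the share was 19.6% of 398 in GOM and 26.2% of 343 in ULB, the latter close to the 27.5% of matched boundaries of ULB. A core is a match of letters and not a measured binding site. Neighbouring windows share base composition, and mean GC content was 41.6% at GOM-only, 42.5% at ULB-only and 42.8% at matched boundaries, so these shares are given without a test.

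Most boundaries stood at the same place in both depots. The nearest boundary of the other depot was at the identical midpoint for 36.7% of GOM boundaries and within 40 kb for 3047 boundaries of each list. Those matched boundaries lay a median of 10 kb apart. The depot-only boundaries lay a median of 140 kb (GOM) and 120 kb (ULB) from the nearest boundary of the other depot. At the threshold itself, 176 boundaries of each list were matched at exactly 40 kb, and 57 were left unmatched at 50 kb.

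Depot-only boundaries were of several kinds. For 366 of the 764 GOM-only and 362 of the 705 ULB-only boundaries, the edges of the gap were within 40 kb of the edges of a gap in the other depot, and only the midpoints were farther apart. With the distance taken between the nearer edges of the gaps, 398 GOM-only and 343 ULB-only boundaries were left. Among these, 246 GOM-only and 182 ULB-only boundaries lay inside 1 TAD of the other depot and more than 200 kb from any of its boundaries. A further 82 and 94 lay inside 1 TAD within that distance, and 70 and 67 lay outside the TADs of the other depot. The share of boundaries in one depot only was 20.0% in GOM and 18.8% in ULB over all autosomes. By chromosome it ranged from 11.7% (chromosome 18) to 28.4% (chromosome 16) in GOM and from 10.8% (chromosome 18) to 22.7% (chromosome 8) in ULB.

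**Figure D1:**
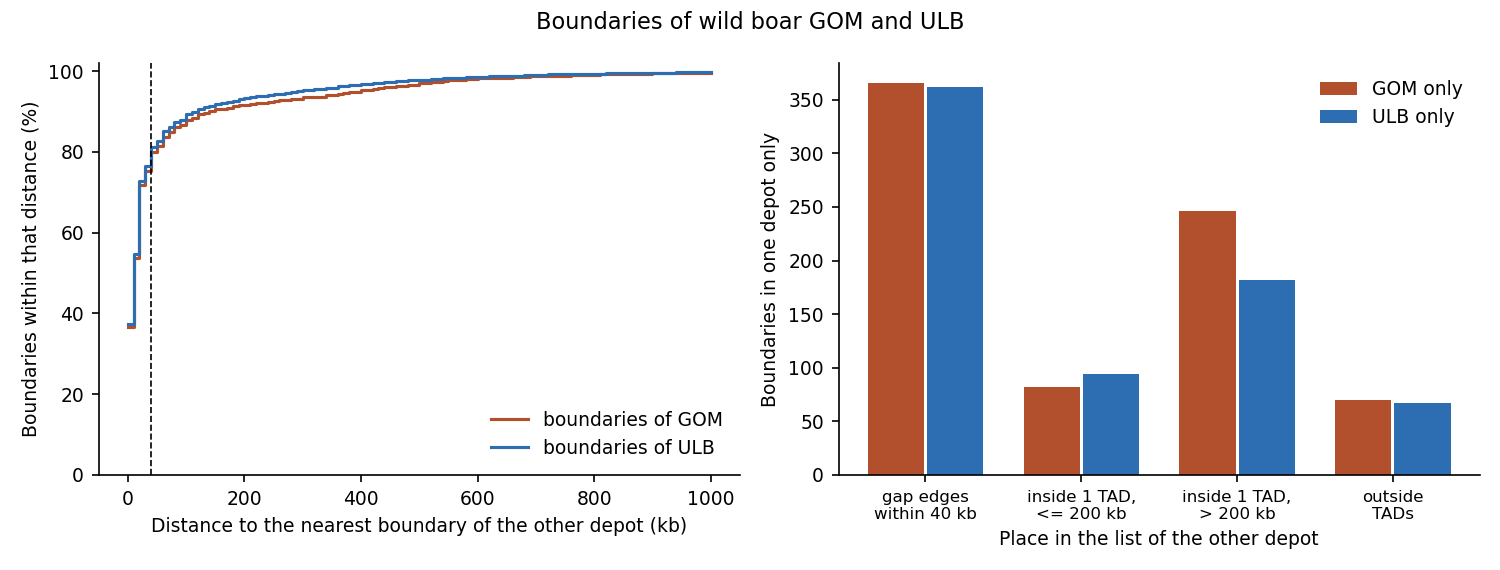
Left, the percentage of boundaries of wild boar GOM and ULB that have a boundary of the other depot within the distance on the x axis (kb), with the 40-kb limit dashed. Right, the number of GOM-only and ULB-only boundaries by their place in the other depot's list. About equal numbers (366 and 362) have gap edges within 40 kb of the other depot's, and the class inside 1 TAD and over 200 kb away holds 246 GOM-only and 182 ULB-only boundaries.

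At the level of whole TADs, 2624 were shared, with both edges within 40 kb of those of 1 TAD of the other depot. These were 67.2% of the 3906 GOM TADs and 68.2% of the 3850 ULB TADs. The remaining 1282 GOM and 1226 ULB TADs were about as long as the shared ones, with a median of 460 kb against 440 kb in each depot. Most of them kept one edge: 944 of the GOM-only TADs and 898 of the ULB-only TADs had exactly 1 edge matched, and 210 and 177 had none.

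Where both outer edges matched, TADs merged or split. A single ULB TAD corresponded to a run of GOM TADs in 151 cases (137 of 2, 12 of 3 and 2 of 4), with a median length of 920 kb for the single TAD. The reverse, a single GOM TAD made of several ULB TADs, occurred in 128 cases (121 of 2, 6 of 3 and 1 of 4), with a median of 780 kb. These clean splits held 167 of the GOM-only and 136 of the ULB-only boundaries.

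Clean splits in GOM and in ULB lay in different chromatin. The compartment values are deposited per 20-kb bin under the name of an A-B index, which the methods define as a difference between contact scores and not as PC1. They average to 0 on each chromosome within rounding, as a principal component does, and are read here as PC1, which is an assumption. Either measure is higher in the A compartment. The value was positive (A compartment, active chromatin) in all 4 libraries for 44.8% of bins, with 10.6 placed genes per Mb, and negative in all 4 for 44.2%, with 1.43 genes per Mb. At GOM-only clean splits PC1 was positive for 39.5% and 38.3% of boundaries in the GOM libraries and for 38.9% in both ULB libraries. At ULB-only clean splits it was positive for 64.0% and 61.8% in the GOM libraries and for 62.5% and 61.8% in the ULB libraries. The 4 libraries differed by at most a few points within each class, and the 2 classes did not overlap. Matched boundaries were between 58.4% and 60.7% positive.

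PC1 changed little across the clean splits, and no more in the depot that had the boundary. The absolute difference in mean PC1 between the 5 bins on either side had a median of 5.0 and 3.91 in GOM and of 4.36 and 4.28 in ULB at GOM-only clean splits. At ULB-only clean splits it was 5.63 and 4.97 in GOM and 5.36 and 5.19 in ULB. At matched boundaries of the GOM list it was 12.39 and 10.67 in GOM and 11.22 and 11.12 in ULB. The ranges of the depots overlapped in each class, so the difference between depots was within the spread of the libraries.

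**Figure D2:**
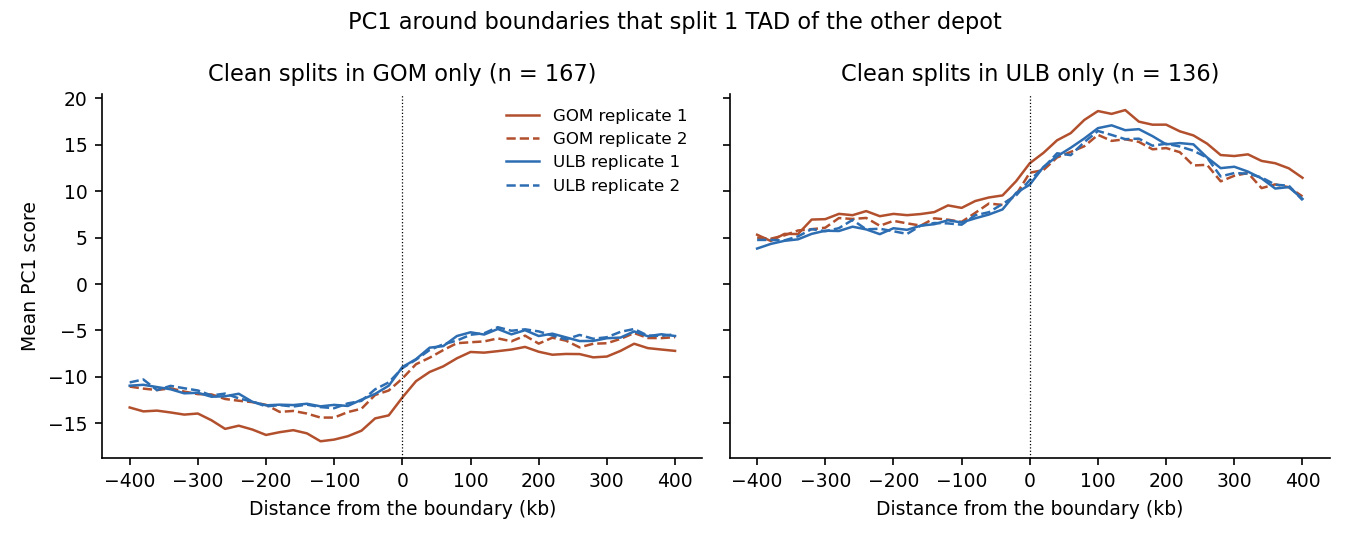
Mean PC1 score (y axis) by distance from the boundary in kb (x axis) at clean splits found in GOM only (left, n = 167) or in ULB only (right, n = 136), 1 line per wild boar Hi-C library, each boundary turned so that the side of higher PC1 is on the right. The GOM-only splits lie at negative and the ULB-only splits at positive mean PC1, and the 4 libraries follow each other.

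Few bins changed the sign of PC1 between depots, and bins in rearranged TADs did so no more often than others. PC1 had one sign in both GOM libraries and the other in both ULB libraries in 2.00% of 113298 bins. The share was 1.5% of the 37868 bins in a TAD of one depot only and 2.28% of the 63915 bins in shared TADs. Bins in a TAD of one depot only were less often positive, between 37.8% and 38.5% over the 4 libraries, than bins in shared TADs, between 56.0% and 56.9%. On chromosome 10 the 2 GOM libraries correlated with a Pearson r of only 0.603 over bins. Without that chromosome the switched shares were 1.55% and 2.34%.

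The Bama pig lists gave a second look at the same positions. Of the 764 boundaries found in wild boar GOM only, 411 (53.8%) had a boundary within 40 kb in Bama pig GOM and 276 (36.1%) in Bama pig ULB. Of the 705 found in wild boar ULB only, 424 (60.1%) had one in Bama pig ULB and 189 (26.8%) in Bama pig GOM. Matched boundaries of the wild boar GOM list were found far more often, 86.9% in Bama pig GOM and 91.9% in Bama pig ULB. The Bama pig GOM list is also the shorter, with 3563 boundaries against 3862. The full depot pattern, present in the same depot and absent from the other, held for 228 GOM-only (29.8%) and 291 ULB-only boundaries (41.3%). The opposite pattern held for 93 (12.2%) and 56 (7.94%). The remaining boundaries were in both Bama pig lists (183 and 133) or in neither (260 and 225). These are 1 list per breed and depot, so the counts carry no replicate error.

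**Figure D3:**
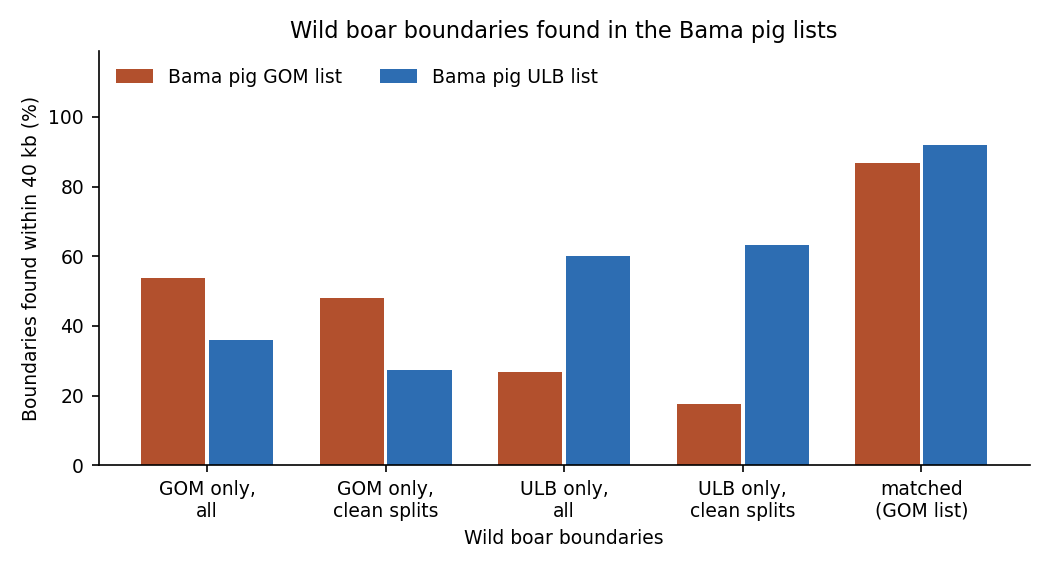
Percentage of wild boar boundaries (y axis) that have a boundary within 40 kb in the Bama pig GOM list or ULB list, for GOM-only and ULB-only boundaries, all of them or the clean splits alone, and for the matched boundaries of the GOM list. Each depot-only class has its higher bar in the same depot of Bama pig, for example 47.9% against 27.5% for GOM-only clean splits and 17.6% against 63.2% for ULB-only clean splits.

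Expression was compared between depots in the 4 wild boar RNA-seq libraries, with 14095354 to 17402255 estimated counts each. edgeR's quasi-likelihood test on 16183 genes called 318 (1.97%). A call needed an adjusted p under 0.05 (Benjamini-Hochberg) together with a log2 fold change of more than 1 in either direction. Of these, 197 (1.22%) were higher in GOM and 121 (0.748%) higher in ULB. An unadjusted p below 0.05 by the same test was found for 3400 of all genes tested (21.0%). The tested genes with a known start site on an autosome were 11535. The libraries held fat in all 4 cases. Adipocyte genes such as FABP4, PLIN1 and ADIPOQ summed to 11000 and 14600 TPM in GOM and to 16900 and 20000 TPM in ULB, without overlap. Their median log2 fold change was -0.06. Of the 10 tested, 0 was called by edgeR, with 1 (LEP) at an unadjusted p below 0.05 and called by DESeq2 as an alternative. Genes of other cells were summed in the same way. Mesothelial genes summed to 605 and 189 TPM in GOM and to 22.9 and 5.57 TPM in ULB, with 5 of 8 called higher in GOM (BNC1, UPK1B, WT1, KRT8 and PKHD1L1, of which BNC1 and WT1 are also in the list of depot factors). MSLN and UPK3B, further defining genes of mesothelium, were not analysed here. Macrophage genes summed to 2320 and 1390 TPM in GOM and 661 and 799 TPM in ULB, with 2 of 10 called higher in GOM. Of these 10, 8 had an unadjusted p below 0.05 by edgeR and DESeq2 called 6. The median log2 fold change of the macrophage genes was 1.62. Skeletal muscle genes summed to 382 TPM in ULB replicate 1 and to at most 10.2 TPM in the other libraries, and edgeR called 0 of 6, with 5 at an unadjusted p below 0.05 and 3 called by DESeq2. Lymphocyte genes (25.5 to 63.4 TPM, 9 tested), endothelial genes (512 to 717 TPM, 7 tested) and skin epithelial genes (1.18 to 2.78 TPM, 1 tested) had 0 calls by edgeR and 0 by DESeq2, with 2, 0 and 0 at an unadjusted p below 0.05. Fibroblast and progenitor genes (4190 and 4100 TPM in GOM, 8000 and 6390 TPM in ULB) had 1 call of 7, PI16, higher in GOM. Of these 7, 3 had an unadjusted p below 0.05 by edgeR and DESeq2 called 2. The part of other cells in the depot differences was not tested, and in tissue more cells of a type cannot be told apart from more RNA per cell.

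The share of genes called was slightly higher in rearranged than in shared TADs, with no test of the difference between them. Of 3344 tested genes with a start site in a TAD of one depot only, 87 (2.6%) were called, 58 higher in GOM and 29 higher in ULB. In shared TADs 130 of 6335 (2.05%) were called. The median absolute log2 fold change was 0.485 in TADs of one depot only and 0.472 in shared TADs. It was 0.469 over all tested genes placed on autosomes, which alone can fall in these classes, and 0.502 over all genes tested. Near the boundaries themselves, 12 of 359 tested genes (3.34%) within 40 kb of a GOM-only boundary and 6 of 359 (1.67%) within 40 kb of a ULB-only boundary were called. The background was 1.97% over all genes tested and 2.18% over those placed on autosomes. The count of 87 fell to 10 without GOM replicate 1 (0.297% of those tested, against 0.267% of all genes), 57 without GOM replicate 2, 54 without ULB replicate 1 and 51 without ULB replicate 2.

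In TADs that were single in GOM and divided in ULB, 11 of 713 tested genes (1.54%) were called, 9 higher in GOM and 2 higher in ULB. In TADs that were single in ULB and divided in GOM, 17 of 484 (3.51%) were called, 12 higher in GOM and 5 higher in ULB. Of these 28 called genes, 14 had the single TAD in the depot with the higher level and 14 had the divided one there. Across clean splits with tested genes on both sides, the median log2 fold changes of the neighbouring TADs differed by a median of 0.565 over 58 GOM-only boundaries and 0.299 over 68 ULB-only boundaries. Over 1266 matched boundaries between shared TADs of GOM the difference was 0.557, and over 1255 of ULB it was 0.547. The number of tested genes behind each TAD median was not matched between these classes. A median over fewer genes varies more, so no difference between the classes is read from these values.

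Many depot transcription factors lay in rearranged TADs. Of a list of 40 such factors, 35 were placed on autosomes in the expression table, and 19 of these (54.3%) had their start site in a TAD of one depot only, against 29.0% of all 13052 placed genes. Several share a TAD of GOM, among them 6 HOXC genes and pairs of IRX genes, so they are not independent, and the difference from genes at large was not tested. Of the 29 tested factors, 7 were called higher in GOM and 5 higher in ULB, and DESeq2 called 21. Among those 12, 7 lay in TADs of one depot only and 5 in shared TADs. TBX15, PITX1, HOXA4 and OSR1 were not matched by symbol and were not analysed here.

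The IRX1 and IRX2 locus on chromosome 16 was split in the depot that expressed it. These Iroquois homeobox genes pattern embryonic tissues and were the only placed genes in a TAD of 1240 kb in GOM (chr16:77700001-78940000). ULB had 2 TADs there, of 540 and 740 kb, with a boundary 75.9 kb upstream of the start of IRX2 and 540 kb from any GOM boundary. IRX2 was at 0 TPM in both GOM libraries and at 2.56 and 3.37 TPM in ULB, at least 21.2-fold higher in ULB, and it was called (adjusted p = 0.0285 by edgeR's test). IRX1, whose start lies at the outer edge of the same TAD, had 0.107 and 0.882 TPM in GOM and 10.6 and 8.25 TPM in ULB, without overlap, and missed the call (log2 fold change -3.97, standard error 0.87, adjusted p = 0.0774). PC1 of the region was negative in all 4 libraries, between -13.1 and -8.8. Neither Bama pig list had a boundary within 40 kb of this one. Both lists divided the region farther on, in the direction of IRX2, with gaps 50 to 70 kb away in Bama pig ULB and 90 to 110 kb away in Bama pig GOM.

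ZIC1, a zinc finger factor of dorsal mesoderm and neural tissue, showed the reverse. ULB, which expressed it, had 1 TAD of 1460 kb (chr13:87020001-88480000), and GOM had 3, of 520, 400 and 480 kb. ZIC1 was at 0 TPM in both GOM libraries and at 23.0 and 12.1 TPM in ULB, at least 90.9-fold higher in ULB (adjusted p = 0.0133). Its divergent neighbour ZIC4, the only other gene placed in the TAD and named after its values were seen, was at 0 TPM in GOM and at 2.9 and 0.841 TPM in ULB, and just missed the call (adjusted p = 0.0512). Mean PC1 of the TAD was -47.1 and -37.7 in GOM and -23.9 and -30.2 in ULB, so the 2 depots did not overlap while both were negative. Within 40 kb, the first of the boundaries was present in both Bama pig lists and the second in neither. Bama pig GOM had a gap 350 to 370 kb from the first, where wild boar GOM had its second at 410 to 430 kb. Bama pig ULB had a single TAD there, from 10 to 910 kb.

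SHOX2, a homeobox factor of limb and subcutaneous fat, had a GOM-only boundary 22.3 kb from its start. It divided a ULB TAD of 940 kb (chr13:97380001-98320000) into TADs of 480 and 420 kb in GOM, and Bama pig had it in GOM alone. SHOX2 had 1.63 and 5.37 TPM in GOM and 18.3 and 29.9 TPM in ULB, without overlap, and missed the call (log2 fold change -2.51, standard error 0.60, adjusted p = 0.0902). Mean PC1 of the TAD was -23.7 and -23.0 in GOM and -9.3 and -12.3 in ULB.

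Among genes called higher in GOM in such TADs were BNC1, ISL1, ST6GAL2, GATA5 and TCF21. BNC1, which encodes basonuclin 1 and marks mesothelium, had 13.8 and 5.98 TPM in GOM and 0 in both ULB libraries, at least 151-fold higher in GOM (adjusted p = 0.00907). A ULB TAD of 680 kb (chr7:51000001-51680000) was divided in GOM into 500 and 200 kb, with BNC1 in the smaller part. That boundary was also present in Bama pig GOM and absent from Bama pig ULB. The other 2 genes of the TAD, ADAMTSL3 and SH3GL3, named after their values were seen, were not called (log2 fold changes 1.03 and 0.9, adjusted p = 0.0815 and 0.431).

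ISL1, a LIM homeobox factor of mesodermal and neural progenitors, had 7.46 and 2.52 TPM in GOM and 0 in both ULB libraries, at least 45.3-fold higher in GOM (adjusted p = 0.0285). It was the only gene placed in a ULB TAD of 1020 kb (chr16:30960001-31980000) that GOM divided into 500 and 460 kb, and its start lay just outside the first of these. ST6GAL2, a sialyltransferase, had 33.1 and 5.96 TPM in GOM and 0.485 and 0.0544 TPM in ULB (log2 fold change 6.24, standard error 1.10, adjusted p = 0.046). GOM divided its ULB TAD of 940 kb into 160 and 740 kb, 618.1 kb from its start. Both boundaries were present in Bama pig GOM and absent from Bama pig ULB.

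GATA5 and TCF21 had the single TAD in GOM. GATA5, a zinc finger factor of mesoderm and endoderm, had 22.5 and 9.24 TPM in GOM and 0.0424 and 0.0427 TPM in ULB, at least 143-fold higher in GOM (adjusted p = 0.00729). Its GOM TAD of 1640 kb (chr17:61440001-63080000) was divided in ULB into 980 and 580 kb. It was the only one of 35 tested genes in that TAD to be called. TCF21, a helix-loop-helix factor of visceral mesenchyme, had 8.19 and 3.07 TPM in GOM and 0 and 0.0617 TPM in ULB, at least 33.9-fold higher in GOM (adjusted p = 0.0285). Its GOM TAD of 440 kb (chr1:29800001-30240000) was divided in ULB by a gap of 80 kb that held its start. Mean PC1 of this TAD was 5.8 and 6.6 in GOM and -3.5 and -6.1 in ULB, a change of sign between the depots. By midpoints within 40 kb, both boundaries were present in Bama pig ULB and absent from Bama pig GOM. Even so, Bama pig GOM had no single TAD at TCF21. Its gap there ran from -160 to 20 kb of the wild boar boundary, with a midpoint beyond the limit.

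**Figure D4:**
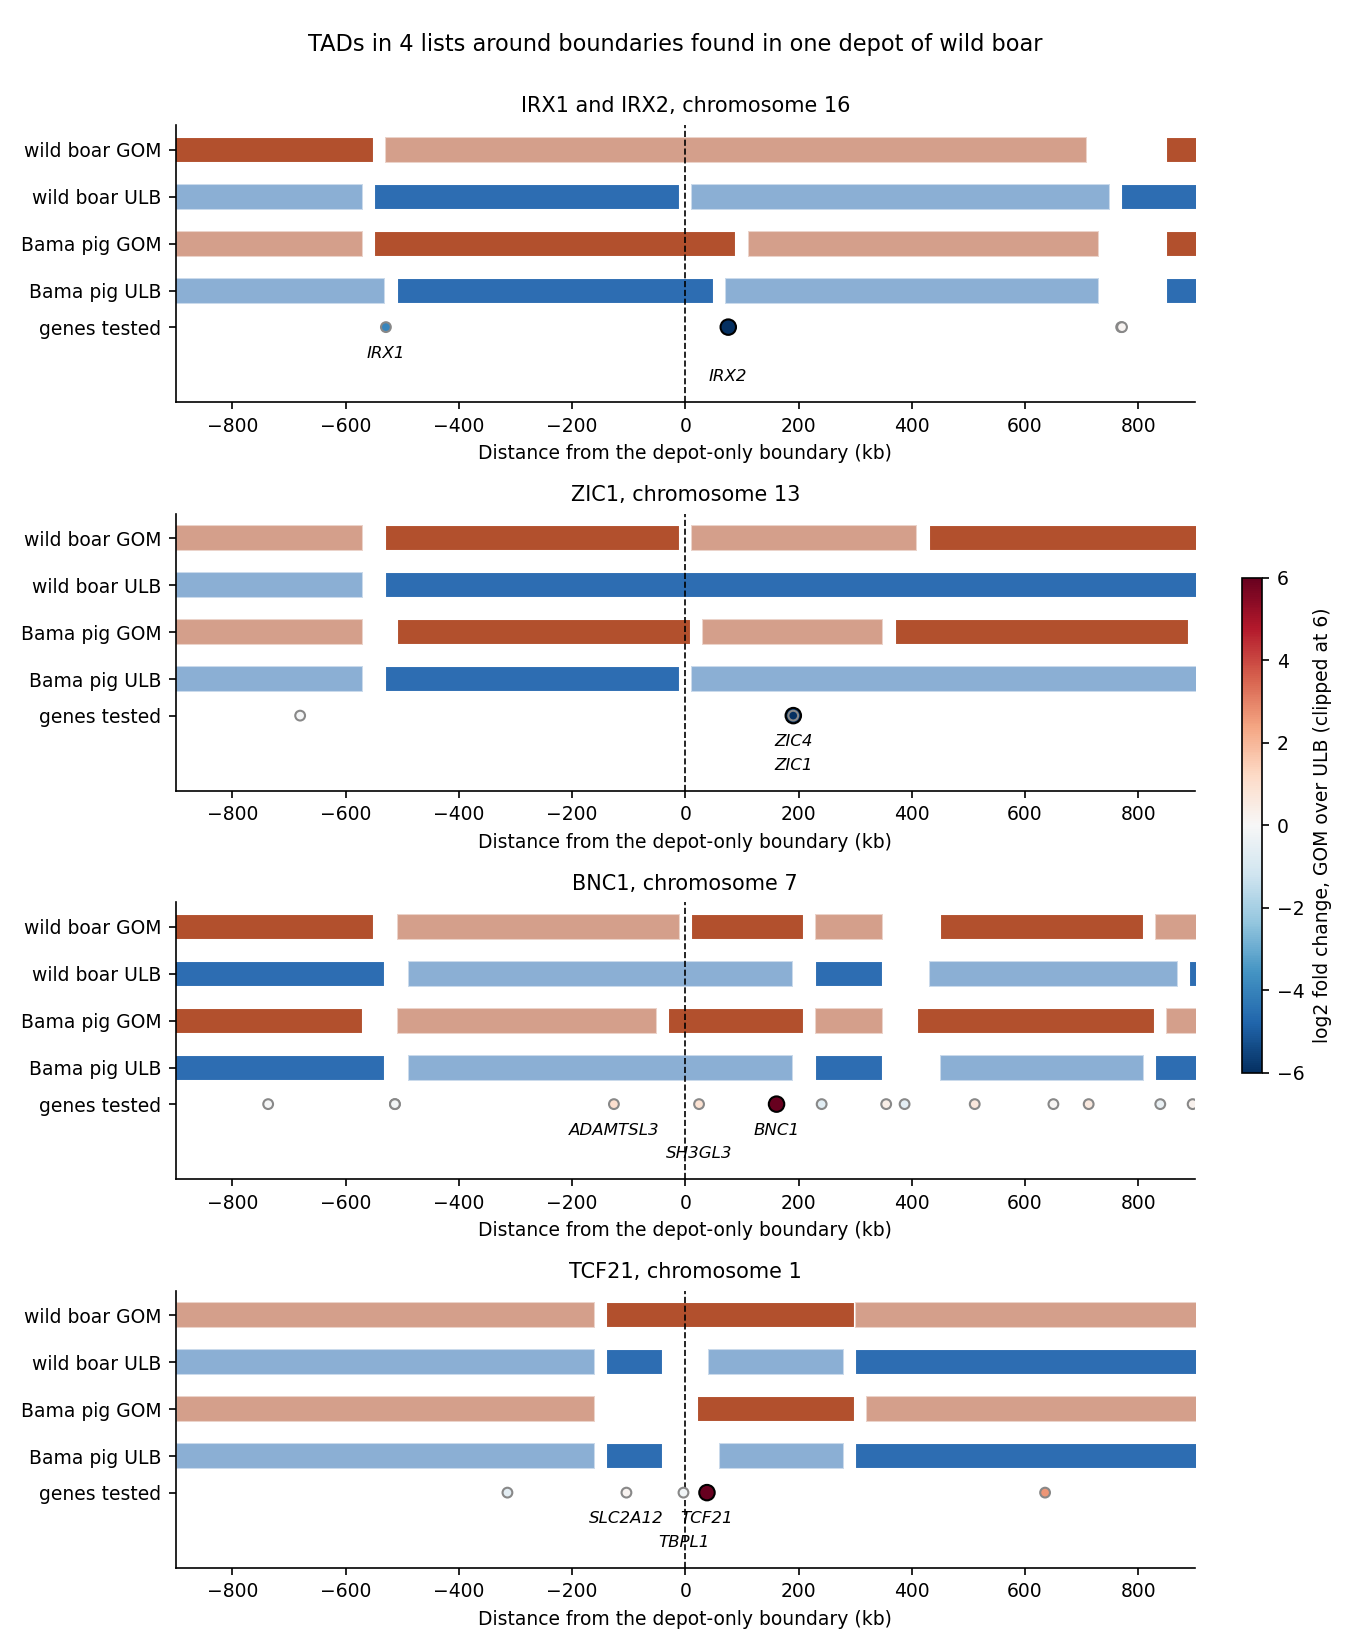
TADs (bars, neighbouring TADs shaded alternately) in the 4 lists around 4 boundaries of wild boar found in one depot only, against the distance from that boundary in kb (x axis, boundary dashed at 0), with the start sites of tested genes as points coloured by log2 fold change of GOM over ULB in wild boar, clipped at 6; large points are called genes. IRX2 and ZIC1 are blue (higher in ULB), BNC1 and TCF21 red (higher in GOM), and the boundary divides the TAD in ULB at IRX2 and TCF21 and in GOM at ZIC1 and BNC1.

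The mesothelial gene sum was high in the same libraries as BNC1, ISL1, ST6GAL2, GATA5 and TCF21, with GOM replicate 1 above GOM replicate 2 in each case. BNC1 is itself part of that sum, and these genes were grouped here because they were called higher in GOM. The macrophage sum had the same order in GOM (2320 and 1390 TPM), so the order is not particular to mesothelial genes. The part of mesothelial cells in the differences of BNC1, ISL1, ST6GAL2, GATA5 and TCF21 was not tested. The TADs came from the adipocyte-containing layer and the RNA did not, by the methods, so both readouts need not describe the same cells. Over the 10 boundaries in these TADs (9 TADs, with that of ERBB4), 6 were present in Bama pig in the same depot alone, 1 in both lists and 3 in neither. These counts use midpoints within 40 kb, and the farther Bama pig gaps given above at TCF21, IRX2 and ZIC1 are not in them. The TADs were named for their genes after the values of those genes were seen.

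Depot factors in shared TADs were also called. WT1, a visceral and mesothelial factor, had 72.9 and 19.9 TPM in GOM and 0 and 0.103 TPM in ULB, at least 398-fold higher in GOM (adjusted p = 0.00907), and its TADs of 440 and 460 kb matched. MEIS1 had 70.4 and 34.8 TPM in GOM and 13.6 and 11.6 TPM in ULB (log2 fold change 2.21, standard error 0.34, adjusted p = 0.0326). EN1, SIM1 and HOXD8 were called higher in ULB in shared TADs. EN1, a dorsal homeobox factor, had 0.0479 and 0 TPM in GOM and 7.12 and 3.16 TPM in ULB, at least 36.6-fold higher in ULB. HOXD8 had 7.65 and 9.42 TPM in GOM against 79.1 and 78.5 TPM in ULB.

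**Figure D5:**
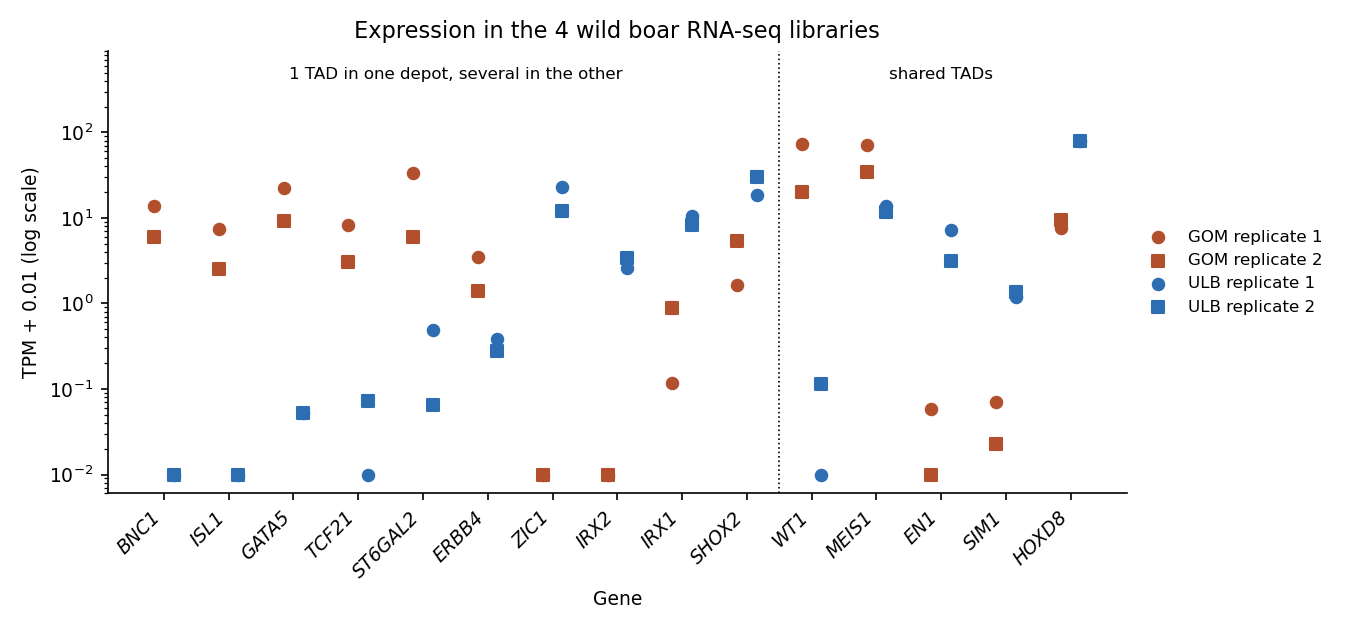
TPM plus 0.01 on a log axis for 15 genes in the 4 wild boar RNA-seq libraries, with circles for replicate 1, squares for replicate 2, and the depots in separate colours. Left of the dotted line are 10 genes whose TAD was single in one depot and divided in the other, and right of it 5 depot factors in shared TADs. GOM and ULB do not overlap for any of the 15, some of which were chosen for that, and 52.8% of all genes tested do not overlap either.

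Other depot factors lay in shifted rather than split TADs. GATA6 had 42.5 and 21.7 TPM in GOM and 1.94 and 1.69 TPM in ULB (log2 fold change 4.30, standard error 0.38, adjusted p = 0.00802). Its TADs of 900 kb in GOM and 780 kb in ULB began at the same base and ended apart. HOXC9 had 0.34 and 0.206 TPM in GOM and 6.36 and 6.96 TPM in ULB (log2 fold change -4.40, adjusted p = 0.0314), in a TAD of 740 kb in GOM and 520 kb in ULB. Its neighbour HOXC8 had 0.472 and 0.291 TPM in GOM and 2.48 and 2.71 TPM in ULB, without overlap, and missed the call (adjusted p = 0.0862).

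On chromosome 6 a GOM-only boundary lay 14.9 kb from the start of IRX3, and a ULB-only boundary 5.0 kb from that of IRX5. IRX3 was in a TAD of 680 kb in GOM and 1200 kb in ULB. Its levels were 1.66 and 4.26 TPM in GOM and 16 and 13.1 TPM in ULB, and it missed the call (log2 fold change -2.05, standard error 0.55, adjusted p = 0.111). IRX5 had 0.13 and 0.47 TPM in GOM and 3.99 and 2.75 TPM in ULB and also missed it (adjusted p = 0.0955). Both boundaries followed the depot pattern in Bama pig.

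The largest changes among other genes in TADs of one depot only were of several functions. UPK1B, a uroplakin of mesothelium and urothelium, had 104 and 52.8 TPM in GOM and 0.381 and 0 TPM in ULB (log2 fold change 8.71, adjusted p = 0.00856). NKX2-3, a homeobox factor of visceral mesoderm, had 2.34 and 7.18 TPM in GOM and 0 and 0.0927 TPM in ULB, at least 41.9-fold higher in GOM. Here GOM replicate 2 was the higher, unlike the mesothelial sum. TMEM151A was also higher in GOM (log2 fold change 5.73, adjusted p = 0.0428).

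On the ULB side, PHGDH, the first enzyme of serine synthesis, had 5.98 and 4.82 TPM in GOM and 60.8 and 61.9 TPM in ULB (log2 fold change -3.32, standard error 0.26, adjusted p = 0.00683). P4HA3, a collagen prolyl hydroxylase, had 0.378 and 1.78 TPM in GOM and 14.9 and 33.3 TPM in ULB. GRIA4, a glutamate receptor subunit, had 0.795 and 1.25 TPM in GOM and 13.2 and 13 TPM in ULB. CDH18 and RIMS3 were called higher in ULB with log2 fold changes of -4.17 and -3.71.

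Within 40 kb of a depot-only boundary, CRYM, which encodes a thyroid hormone-binding crystallin, had 1.01 and 3.36 TPM in GOM and 52.3 and 58.4 TPM in ULB (log2 fold change -4.39, standard error 0.58, adjusted p = 0.0226). A ULB-only boundary lay 35.0 kb from its start, with gap edges that touched a gap of GOM. The start of FHOD3, a formin of muscle, lay 6.8 kb from a GOM-only boundary whose gap was 100 kb from any in ULB. FHOD3 had 0.278 and 0.524 TPM in GOM and 4.09 and 7.51 TPM in ULB (log2 fold change -3.60, adjusted p = 0.0265). CTNNA2, KLKB1 and DMRT2 were also called higher in ULB beside GOM-only boundaries.

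Of the genes higher in GOM near a boundary, DSG2, a desmosomal cadherin of epithelia, had 19.6 and 13.7 TPM in GOM and 0.824 and 0.0968 TPM in ULB (log2 fold change 5.31, adjusted p = 0.0301). SERPINE3, a serpin, had 32.8 and 14.3 TPM in GOM and 0 in both ULB libraries, at least 155-fold higher in GOM. Its start lay 9.4 kb from a GOM-only boundary and outside the TADs of both depots. The gap at that boundary touched a gap of ULB, as did the one beside BICDL1. BICDL1 had 8.42 and 12.9 TPM in GOM and 0.554 and 0.511 TPM in ULB (log2 fold change 4.55, adjusted p = 0.00907), 5.5 kb from a GOM-only boundary. COL22A1, a collagen of tissue junctions, was called higher in GOM with 1.97 and 1.6 TPM against 0.0993 and 0.0253 TPM.

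The clean-split boundaries farthest from any boundary of the other depot lay in gene-poor TADs in GOM and in TADs of varied gene content in ULB. The 5 in GOM lay 860 to 1130 kb away and divided ULB TADs with 0 to 4 placed genes. These distances are to counted boundaries and not to TAD edges. An edge beside a gap too wide to count as a boundary could lie nearer. For example, the GOM-only boundary 890 kb away divided a ULB TAD of only 920 kb. The farthest, at chr3:122820001-122840000, divided a ULB TAD of 1540 kb with 0 placed genes and a mean PC1 between -61.6 and -50.5 in the 4 libraries. It was present in Bama pig GOM and absent from Bama pig ULB. Among the 3 tested genes in the next TAD, NECTIN3, an adhesion molecule, had 25.1 and 33.9 TPM in GOM and 21.4 and 27.5 TPM in ULB, with overlap. The 5 in ULB lay 620 to 800 kb away by the same measure, the one at 750 kb in a GOM TAD of 920 kb. Their GOM TADs held 3, 21, 0, 48 and 22 placed genes. The TAD of GATA5 held the 48.

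The clean splits with most tested genes held 19 to 55 each. The 5 ULB-only ones had GOM TADs with 55, 45, 35, 32 and 22 tested genes, of which edgeR called 0, 2, 1, 1 and 0 and DESeq2 5, 8, 2, 1 and 0. At an unadjusted p below 0.05 by edgeR there were 12, 15, 4, 2 and 1, and over all genes tested the share was 21.0%. The TAD with 45 lies in the major histocompatibility complex (chr7:23340001-24260000), and its ULB-only boundary was present in both Bama pig lists. There CFB, complement factor B, had 104 and 82.2 TPM in GOM and 2.45 and 8.61 TPM in ULB (log2 fold change 4.31, standard error 0.55, adjusted p = 0.0204). C4A, complement component C4, had 509 and 193 TPM in GOM and 36.9 and 41.3 TPM in ULB (log2 fold change 3.32, adjusted p = 0.0274). Its reads may be shared with a near-identical copy, so its level is uncertain. AGRN, which encodes agrin of basement membranes, was the called gene of the TAD with 32, with 18.3 and 10.5 TPM in GOM and 3.36 and 2.71 TPM in ULB.

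The 5 GOM-only ones had ULB TADs with 32, 29, 20, 19 and 19 tested genes, of which edgeR called 1, 3, 0, 0 and 1, each higher in GOM, and DESeq2 2, 4, 0, 1 and 1. At an unadjusted p below 0.05 by edgeR there were 9, 5, 4, 4 and 5, beside the same 21.0% of all genes tested. In the ULB TAD at chr7:37280001-38520000, divided by a boundary found in neither Bama pig list, the 3 called genes lay in the same GOM part. They were GNMT, the glycine methyltransferase that disposes of methionine (30.1 and 39.2 TPM in GOM, 2.36 and 4.44 TPM in ULB), PTK7, a receptor of Wnt signalling (17.9 and 6.22 against 1.19 and 1.97 TPM), and CNPY3, a chaperone (27.4 and 19.8 against 7.72 and 10.1 TPM). The median log2 fold change was 0.16 over 5 tested genes in the other part and 0.37 over 24 in theirs. CST6, cystatin M, and ALOX15, a lipoxygenase of macrophages and epithelia, were the called genes of the other TADs, with log2 fold changes of 3.14 (adjusted p = 0.0395) and 4.25 (adjusted p = 0.0467).

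Genes that the study discusses with TADs fell on both sides. NEGR1, EDIL3, FHIT and ERBB4 had their start in a TAD of one depot only, and CMPK1, COX7C and ADAM12 in shared TADs. edgeR called 0 of these. CMPK1, EDIL3, ERBB4 and NEGR1 had an unadjusted p below 0.05, as did 21.0% of all genes tested, and DESeq2 called EDIL3 and ERBB4. ERBB4, a receptor of neuregulins, had 3.46 and 1.4 TPM in GOM and 0.376 and 0.266 TPM in ULB (log2 fold change 3.02, standard error 0.65, adjusted p = 0.074), in a ULB TAD of 1080 kb that GOM divided into 600 and 500 kb. NEGR1, a neuronal adhesion molecule tied to body weight, had 0.142 and 1.81 TPM in GOM and 20 and 12 TPM in ULB (log2 fold change -3.76, adjusted p = 0.101). A ULB-only boundary lay 30.4 kb from its start. EDIL3 had 0.248 and 0.116 TPM in GOM and 1.74 and 2.34 TPM in ULB (adjusted p = 0.0571).

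The calls of single genes rested on 2 libraries a depot and on the tool. Of the genes described as missing the call, DESeq2 called IRX1, IRX3, IRX5, SHOX2, HOXC8, EDIL3 and ERBB4. Of 39 named genes that were called, 32 lost the call without GOM replicate 1, 16 without GOM replicate 2, 9 without ULB replicate 1 and 12 without ULB replicate 2. Those that kept it in each case were BICDL1, CRYM, GATA5, GATA6, PHGDH and WT1.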

How the data were processed

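The authors quantified RNA-seq with Kallisto (0.43.0 in the submitters' processing notes, another version in the study's methods) and deposited an estimated count and a TPM value per gene and library. Compartments were deposited by the authors as a score for each 20-kb bin of each library, in a file named for an A-B index and read here as PC1, and the start and end of each TAD, called on merged replicates. The study gives the Hi-C contacts per library; the files used here hold none, so depth was not used. The Bama pig ULB list also drew on a library of an earlier study.

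Estimated counts were rounded and tested with edgeR 4.0.16 in R 4.3.3 (TMM, two-sided, Benjamini-Hochberg), among genes that exceeded 0.1 TPM in both libraries of either depot. The standard error is the absolute log2 fold change over the square root of F. DESeq2 1.42.0 was an alternative. Folds of genes at 3 counts or fewer per library in a depot are lower bounds against that floor (counting error only). Of 21280 genes, 13052 (61.3%) were placed on autosomes by symbol in RefSeq's Sscrofa11.1, whose 18 autosome lengths equal those of the files. Coordinates count from 1. Both the matching and the tests were checked on simulated data. Replicates are separate libraries, and both depots came from the same boars, but no source used here says that a number names a boar. The deviations of same-numbered libraries correlated at 0.173 over 16183 genes with only 2 pairs, so the fit with the number as a block is an alternative. Python 3.11.15 was used for all else.

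Named genes were up to 10 called genes per direction in TADs of one depot only and up to 5 within 40 kb of depot-only boundaries (mean TPM of at least 1, no overlap), genes of the shown splits, 40 depot factors and genes the study discusses, of which 1 is not reported here. These lists and the members were chosen with earlier results of these data known.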

Additional observations from a re-analysis of the deposited data

How the results depend on the processing

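With the whole gap taken as the boundary, GOM-only boundaries fell from 764 to 398 and ULB-only from 705 to 343; other matching distances and gap limits kept both counts within 1.5 times. The calls depended on the test. DESeq2 called 768 genes higher in GOM and 550 higher in ULB, with 352 in TADs of one depot only. These were 10.5% of those tested, against 8.84% in shared TADs and 8.14% of all genes tested. Upper-quartile normalization gave 161 and 113, and edgeR's own expression filter (filterByExpr) 176 and 118. ST6GAL2, CDH18 and ALOX15 lost the call under both, by edgeR's test. RIMS3 and KLKB1 lost it with upper-quartile normalization alone and P4HA3 with filterByExpr alone. The adjusted p of these genes was at most 0.0526 there. Without the filter on low values 369 and 239 were called. With the replicate number as a block (replicate block) they were 961 and 662, with 405 in TADs of one depot only (12.1% of those tested), and 9 named genes gained a call and none lost it: IRX1 (adjusted p = 1.6e-05), SHOX2 (1.03e-06), IRX3 (0.000667), IRX5 (0.00286), HOXC8 (0.0122), NEGR1 (5.19e-06), EDIL3 (0.00146), ERBB4 (0.000905) and ADAM12 (0.0074). In shared TADs the block fit called 10.8%. If the numbers name the boars, as they may, that fit is the paired one. Leaving out 1 library gave 34 to 170 genes higher in GOM, 10 to 101 higher in ULB and 10 to 57 in TADs of one depot only, with the lone library assumed to vary like the others. The median absolute log2 fold change in those TADs stayed between 0.436 and 0.563. Of 52 named genes, 50 kept their direction in all alternatives. The exceptions, neither called, were COX7C, between -0.75 without GOM replicate 2 and 0.11 without GOM replicate 1, and FHIT, between -0.34 without GOM replicate 2 and 0.89 without GOM replicate 1. The TAD calls were not repeated at equal depth, so a boundary missed in one depot cannot be told from one that was not detected.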
